A study of Mus musculus with 15 samples.

Results

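Cytosolic ribosomal protein genes were followed across mouse mammary tumours treated with antiangiogenic drugs. A gene was taken when its symbol was Rpl or Rps with a number and at most one of the letters a, x, y or l and a further digit, or was Rpsa or one of the Rplp genes. The kinases named Rps6k and all pseudogenes were left out, and ribosomal proteins with other symbols, such as Rpl36al and Fau, fall outside the rule. Of 84 protein-coding RefSeq genes with such a symbol, 82 had a probe on the array, among 28074 genes or unnamed transcripts tested. They comprised 43 genes of the body of the large subunit, 30 of the small subunit, 3 of the stalk of the large subunit and 6 paralogs, which are second copies of a ribosomal protein gene. The rule goes by symbol and uses no measured value. Rpl32l and Rps23 were matched to no probe, and Rps4l, annotated as a transcribed pseudogene, was left out.

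The tumours came from female MMTV-PyMT mice, in which the polyoma middle T oncogene is driven by a mammary tumour virus promoter active in mammary epithelium, so all groups share that transgene. T0 tumours (n = 4) were taken before any treatment, and the labels give no age for them. The other mice entered treatment at 7 weeks of age and their tumours were taken at the end of it. They received vehicle (n = 3), B20 (n = 4), an antibody against VEGF injected into the peritoneum at 5 mg per kg 2 times per week, or nintedanib (n = 4), an inhibitor of the VEGF, FGF and PDGF receptor kinases given by mouth at 85 mg per kg daily. The fourth T0 array bears a vehicle label beside its T0 title and was kept in T0. The labels do not say that the samples of a group were separate animals, so p-values reflect sample-to-sample spread that may be technical in part.

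Each ribosome holds a small subunit, which reads the messenger RNA, and a large subunit, which joins amino acids. Their proteins are made in matched amounts by a large set of genes scattered over the genome, and tumour cells with active Myc and mTORC1 signalling make many ribosomes. Most messenger RNAs of ribosomal proteins begin with a C followed by an unbroken run of pyrimidines. Through this terminal tract mTORC1 and the protein Larp1 govern how much they are translated, so that output can shift with no shift in RNA level.

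The tract is shown first because it is the sequence feature that the family is known for. RefSeq promoters (GRCm38.p6) were matched by symbol for 62 of the 82 genes, which lie on 18 chromosomes in all. A C at the annotated start with only C or T after it, at least 5 letters in all and read on the gene's own strand at that position alone, stood at 13 of their 74 annotated starts (17.6%). The same was found at 2.51% of 32851 promoters of that length. The following windows run from 15 bases before the start through the first 15 bases of the transcript, with the tract in capitals. Rps6 lies at chr4:86857353-86857382 on the minus strand, Rpl15 at chr14:18270972-18271001 (minus), Rps27 at chr3:90213634-90213663 (minus), Rpl14 at chr9:120571502-120571531 (plus) and Rplp2 at chr7:141447636-141447665 (plus).
Rps6: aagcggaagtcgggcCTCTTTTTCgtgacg
Rpl15: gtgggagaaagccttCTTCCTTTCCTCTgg
Rps27: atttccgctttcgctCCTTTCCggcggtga
Rplp2: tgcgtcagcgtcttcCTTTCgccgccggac
Rpl14: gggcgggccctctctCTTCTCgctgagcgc

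The longest of these tracts, 13 bases, is that of Rpl15. Some paralogs are shown as well. None of the paralogs with an entry had a tract of at least 5 letters at an annotated start. Most of the set shared this: 49 of the 62 genes with an entry, these paralogs included, had no such tract. The window of Rpl22l1 is chr3:28805493-28805522 (plus), that of Rpl39l chr16:10170213-10170242 (plus), that of Rpl7l1 chr17:46782642-46782671 (minus) and that of the upstream start of Rpl3l chr17:24727811-24727840 (plus).
Rpl22l1: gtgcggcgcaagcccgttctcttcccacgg
Rpl39l: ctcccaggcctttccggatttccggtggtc
Rpl7l1: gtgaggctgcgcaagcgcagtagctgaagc
Rpl3l: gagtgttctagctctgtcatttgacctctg

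A match is a description of the annotated start and not a measured transcript end. The 13 genes with a tract at that exact position and the 49 without one there had nearly the same median differences between groups. The 49 include genes such as Rpl27a, whose unbroken pyrimidine run crosses the annotated start. This split therefore cannot compare genes that have a tract with genes that lack one. For nintedanib minus B20 these were -0.45 and -0.47 log2, and for B20 minus vehicle 0.28 and 0.27.

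Levels below are log2 spot signals after subtraction of the array's 75th percentile, so that 0 is the signal of the probe at that percentile. A step of 1 is a doubling, and differences are given in log2 with the standard error of the fit. Levels of different genes are not compared, because each probe has its own brightness. Of the 82 genes, 80 were well above background on all 15 arrays, and no non-control spot on the arrays was saturated. Rpl3l passed on all 4 T0 arrays, 1 vehicle array, 3 B20 arrays and 3 nintedanib arrays. Rpl10l passed on 1 T0, 1 vehicle, 2 B20 and 2 nintedanib arrays.

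The arrays differed in brightness and in composition. Between 53.5% and 68.1% of probes were well above background on 14 arrays, against 84.2% on T0 replicate 3. The array's 75th percentile averaged 8.58 ± 0.24 log2 (SD, n = 4) in T0, 8.76 ± 0.34 (n = 3) in vehicle, 8.47 ± 0.16 (n = 4) in B20 and 8.91 ± 0.30 (n = 4) in nintedanib. It was lowest in B20 replicate 4 at 8.26 and highest in nintedanib replicate 2 at 9.33. The T0 arrays lay on 2 slides of their own and were scanned on another day, so slide, scan and T0 cannot be told apart. The other groups shared a slide of 8 arrays and a slide of 3.

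The mean level of 15 luminal epithelial markers hardly differed between groups, at 4.10 ± 0.18 in T0, 4.08 ± 0.12 in vehicle, 4.07 ± 0.11 in B20 and 4.07 ± 0.11 in nintedanib, so markers of the labelled tissue were present in all of them. Adipocyte markers (16 genes) ranged from 3.33 to 5.98 in T0, from -0.96 to 0.49 in vehicle, from 0.40 to 2.66 in B20 and from 0.15 to 2.82 in nintedanib. Endothelial markers (15 genes) ranged from 0.51 to 1.76 in T0, from -0.19 to 0.34 in vehicle, from -0.67 to -0.19 in B20 and from -0.33 to 0.40 in nintedanib. Fewer cells of a type and less RNA per cell cannot be told apart in such bulk samples. The part of these cell types in the values below was not tested.

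Taken over the 82 genes, the median level was 8.27, 8.40, 8.27 and 8.78 on the T0 arrays in order of replicate. On the vehicle arrays it was 8.24, 8.53 and 8.45. The B20 arrays gave 8.71, 8.90, 8.38 and 8.67, and the nintedanib arrays 8.02, 7.86, 8.58 and 8.41. B20 was highest on average (8.67 ± 0.22) and nintedanib lowest (8.22 ± 0.33), with T0 (8.43 ± 0.24) and vehicle (8.41 ± 0.15) between, and every pair of groups overlapped. The order went against the arrays' 75th percentiles: nintedanib replicate 2 had the highest percentile and the lowest ribosomal protein median. Left unscaled, the median averaged 17.17 ± 0.26 in vehicle, 17.14 ± 0.21 in B20 and 17.13 ± 0.18 in nintedanib. After quantile normalisation, which gives every array the same distribution of signals, it averaged 17.11 ± 0.07, 17.16 ± 0.04 and 17.10 ± 0.08.

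**Figure D1:**
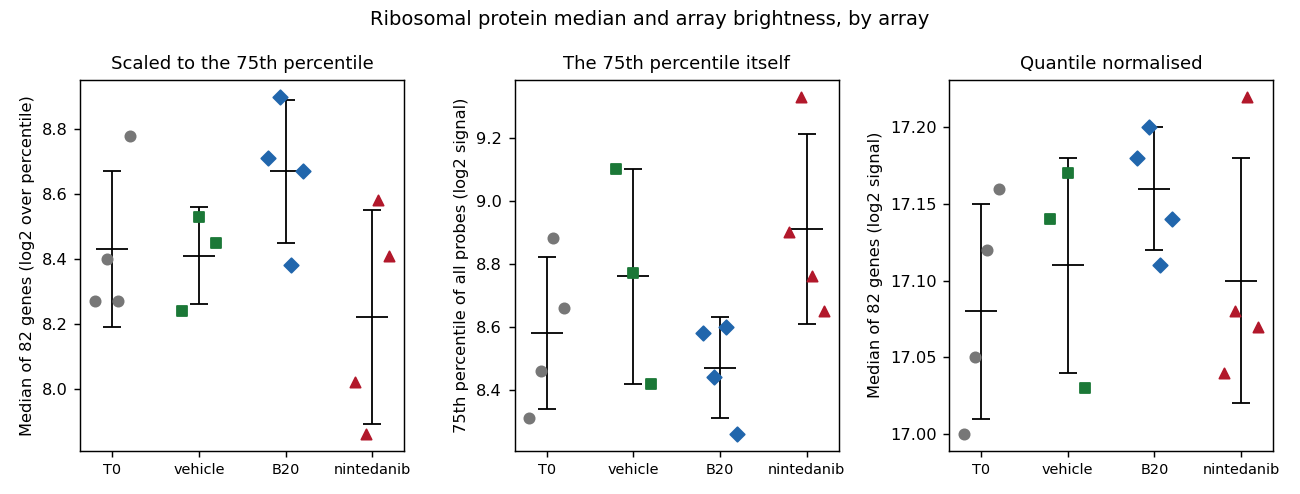
Median level of the 82 ribosomal protein genes on each array (left, log2 over the array's 75th percentile), the 75th percentile of all probes (middle, log2 signal) and the quantile normalised median (right, log2 signal), by group. Each point is an array, the bar is the group mean and the whiskers are the SD. B20 had the highest mean on the left (8.67) and the lowest in the middle (8.47). Of the B20 arrays, only replicate 2 (8.9) lay outside the range of the other groups on the left, and only replicate 4 (8.26) in the middle. The highest value on the right, 17.22, was that of nintedanib replicate 3.

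The genes moved together from array to array. With each gene's group means removed, the median correlation between pairs of the 82 genes over the 15 arrays was 0.816, with quartiles of 0.625 and 0.9. For 46 genes the correlation with the median of the other genes exceeded 0.9. The members with the lowest were Rpl3l (-0.16), Rpl10l (0.01) and Rpl39l (0.34), all paralogs, followed by Rpl23 (0.53) and Rps14 (0.55). All pairs share the arrays and their scaling, and after quantile normalisation the median correlation of pairs was 0.212. The 82 differences within a comparison are therefore not independent of each other.

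**Figure D2:**
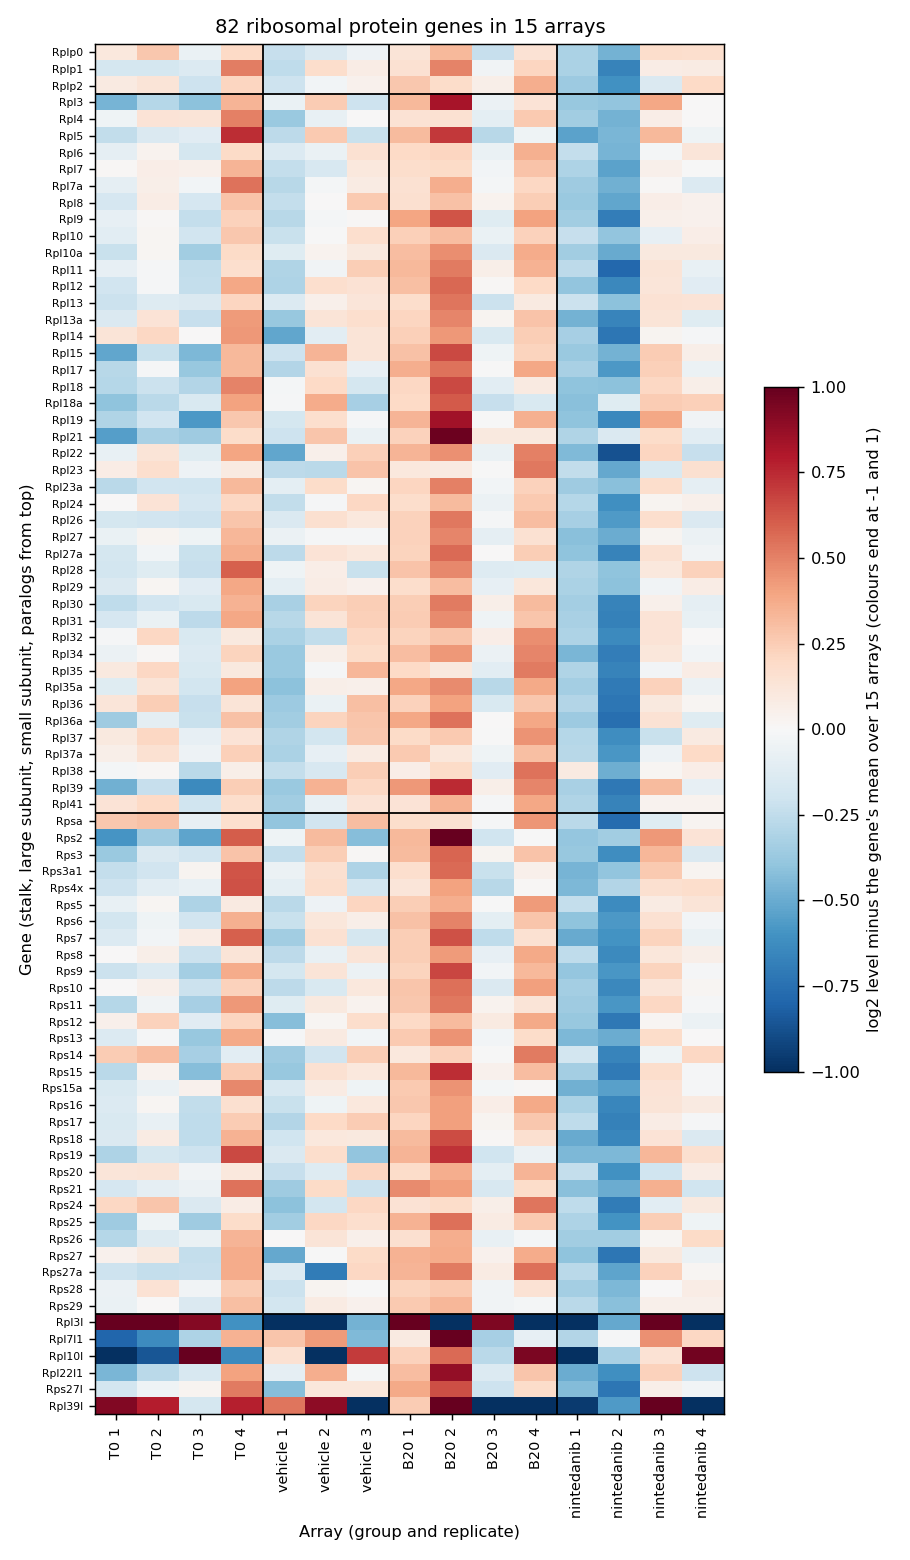
Level of each of the 82 ribosomal protein genes (rows: stalk, large subunit, small subunit and paralogs from the top) on each of the 15 arrays (columns), as log2 difference from the gene's own mean over the arrays, with colours ending at -1 and 1. T0 replicate 4 and B20 replicate 2 were high and nintedanib replicate 2 was low for nearly the whole set, while the paralogs Rpl3l, Rpl10l and Rpl39l followed patterns of their own.

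Between nintedanib and vehicle, which differ in blockade of the VEGF, FGF and PDGF receptors, the ribosomal protein genes lay slightly lower under the drug. Their median difference was -0.17, a ratio of 0.889, with a median standard error of 0.22 for a single gene, and 76 of the 82 were lower. Over all features the median was -0.01. Calls were made at a Benjamini-Hochberg adjusted p under 0.05 from limma: 0 of the 82 were called, and 0% of all features. At an unadjusted p under 0.05, 0 of the 82 passed, against 4.82% of all features. In 0 of the 82 did all nintedanib arrays lie below all vehicle arrays, against 4.14% of all features. With quantile normalisation the median difference was -0.02 and 35 of the 82 were higher, and without nintedanib replicate 2 it was -0.03 with 32 higher. Without nintedanib replicate 1 or vehicle replicate 3 it was -0.11.

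All 43 large subunit body genes and 27 of 30 small subunit genes lay lower in that comparison, with medians of -0.17 and -0.15. Of the others, Rpl10l, Rpl3l, Rplp0, Rps19, Rps2 and Rps27a had positive differences. Rpl36a and Rpl30, both of the large subunit, had the lowest p-values on the lower side, at -0.33 ± 0.24 (SE) and -0.31 ± 0.22, and both had an adjusted p of 0.999. Their 3 probes each gave differences of the same sign.

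Between B20 and vehicle, which differ in neutralisation of VEGF itself, 81 of the 82 genes lay higher under the antibody. The median difference was 0.27, a ratio of 1.21, with a median standard error of 0.22, beside a median of 0.04 over all features. None was called (0% of all features), and 1 of the 82 passed an unadjusted p under 0.05, against 3.24% of all features. All B20 arrays lay above all vehicle arrays for 1 gene, Rplp2, against 2.81% of all features. With quantile normalisation the median was 0.04 and 55 of the 82 were higher, and with no scaling it was -0.03 with 32 higher. Without B20 replicate 2 the median was 0.18, and without vehicle replicate 1 it was 0.17. Both comparisons with vehicle share its 3 arrays.

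The gene past the unadjusted threshold was Rps27a, whose protein is cut from a fusion of ubiquitin and a small subunit protein. It read 9.14, 8.58 and 9.49 on the vehicle arrays and 9.62, 9.80, 9.36 and 9.83 on the B20 arrays. Vehicle replicate 2 was low, and the groups overlapped because vehicle replicate 3 exceeded B20 replicate 3. The difference was 0.58 ± 0.25 (95% interval 0.04 to 1.12, limma's adjusted p = 0.999). Its 3 probes disagreed, with differences from -0.12 to 0.58. The opposite sign on the list was found in Rpl39l alone, at -0.34 ± 0.71. Rpl9, of the large subunit, had the next lowest p, with 0.42 ± 0.22 and an adjusted p of 0.999.

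The median furthest from 0 among the 6 comparisons was that between the drugs. All 82 genes were lower with nintedanib than with B20, by a median of -0.43, a ratio of 0.742, beside -0.04 over all features and with a median standard error of 0.21 for a single gene. None of the 82 was called (0% of all features), and their lowest adjusted p was 0.518. At an unadjusted p under 0.05, 43 of the 82 passed (52.4%), against 9.36% of all features. Nintedanib arrays lay wholly below B20 arrays for 2 genes, Rpl30 and Rps12, against 3.62% of all features. On the 8-array slide the median was -0.50 and on the 3-array slide, with 1 array a group, -0.28.

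This separation moved with the scaling. Quantile normalisation gave a median of -0.05 with 21 of the 82 genes higher and 0 past an unadjusted p of 0.05. The authors' own values gave -0.06 with 20 higher, and with no scaling the median was 0.01 with 44 higher, while that over all features became 0.40. Scaling each array on its own median gave -0.45, again with 0 past that threshold, and centring on 23 housekeeping genes -0.38. Without nintedanib replicate 2 the median was -0.31 and 0 of the 82 passed an unadjusted p of 0.05. That count was 9 without B20 replicate 2, 10 without nintedanib replicate 1, 15 without B20 replicate 4 and 22 without B20 replicate 1. The share of array brightness in the difference was not tested.

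**Figure D3:**
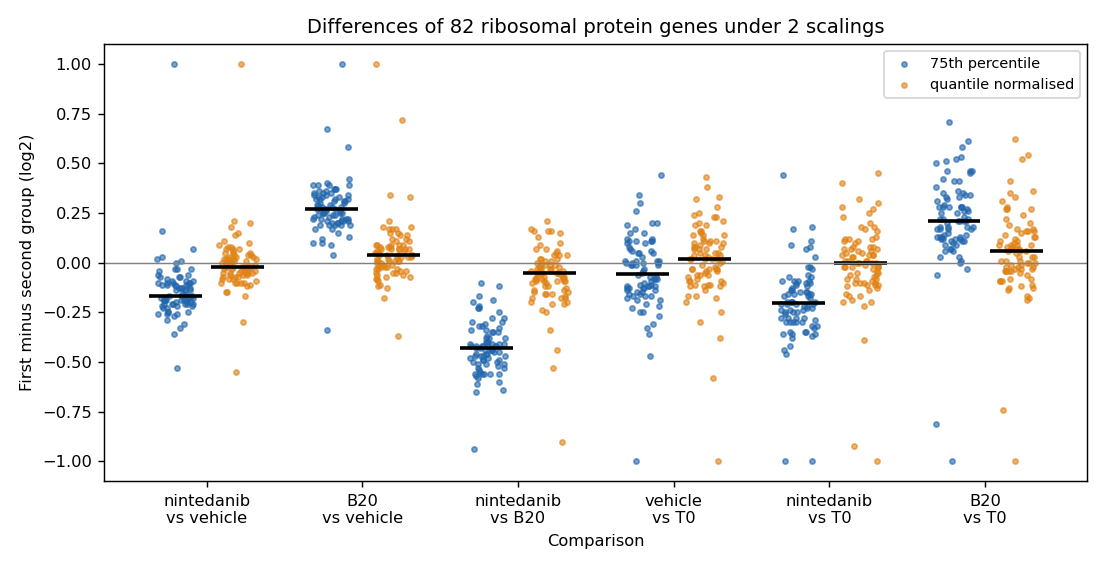
Difference between groups (log2, first minus second) of each of the 82 ribosomal protein genes in the 6 comparisons, after scaling to the 75th percentile (blue) and after quantile normalisation (orange). Each point is a gene, black bars are medians, and points past -1 or 1 are drawn at the edge. The medians for nintedanib against B20 were -0.43 and -0.05 under these scalings.

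Rps12, a small subunit protein, and Rpl30 were the only 2 of the 82 genes without overlap between the drugs, against 3.62% of all features. Rps12 read 9.26, 9.38, 9.15 and 9.44 under B20 and 8.68, 8.35, 9.08 and 9.0 under nintedanib. Vehicle arrays at 8.64, 9.08 and 9.24 overlapped both. The nintedanib minus B20 difference was -0.53 ± 0.19 (95% interval -0.93 to -0.13, adjusted p = 0.518), and -0.13 with an adjusted p of 0.798 after quantile normalisation. Rpl30, of the large subunit, read 8.02, 8.29, 7.83 and 8.09 under B20 and 7.43, 7.10, 7.82 and 7.68 under nintedanib. Nintedanib replicate 3 came within 0.01 of B20 replicate 3 without overlap, and the difference was -0.55 ± 0.20.

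Rps6, the small subunit protein that S6 kinase phosphorylates downstream of mTORC1, tracked the set closely. Its levels were 8.25, 8.39, 8.24 and 8.79 in T0, 8.21, 8.55 and 8.49 in vehicle, 8.73, 8.93, 8.34 and 8.71 in B20, and 8.03, 7.86, 8.59 and 8.41 in nintedanib. Nintedanib replicates 1 and 2 were lowest of all 15 arrays, and nintedanib replicates 3 and 4 lay inside the B20 range. The difference from B20 was -0.46 ± 0.20 (95% interval -0.89 to -0.03, adjusted p = 0.528), and -0.07 after quantile normalisation. Its difference from vehicle was -0.20 ± 0.21 under nintedanib and 0.26 ± 0.21 under B20.

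Rpl5, Rpl11 and Rpl23 are large subunit proteins that can bind Mdm2 and so hold back the destruction of p53 when ribosome assembly is disturbed. Rpl11 read 9.72, 9.91, 9.45 and 9.74 under B20 and 9.13, 8.61, 9.52 and 9.32 under nintedanib. Nintedanib replicate 3 reached into the B20 range. Its difference was -0.56 ± 0.20 (adjusted p = 0.518). Rpl5 read 7.10, 7.49, 6.51 and 6.74 under B20 and 6.25, 6.33, 7.11 and 6.74 under nintedanib, ranges that overlapped widely, and differed by -0.35 ± 0.28. Rpl23 differed by -0.37 ± 0.18. Against vehicle none of these genes had an unadjusted p under 0.05 with either drug.

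Of 22 genes that p53 activates, 0 were called among the end-of-treatment groups, with medians of 0.01 for nintedanib minus vehicle and 0.18 for B20 minus vehicle. Fas, the death receptor, had the lowest p of that list under B20, at 0.40 ± 0.16 and an adjusted p of 0.999. Rps27l, a paralog of Rps27 that p53 can activate, read 7.48, 8.02 and 8.02 in vehicle, 8.28, 8.55, 7.70 and 8.09 in B20 and 7.47, 7.18, 7.96 and 7.88 in nintedanib. Its groups overlapped, and it differed between the drugs by -0.53 ± 0.24, beside -0.56 ± 0.21 for Rps27. Over all 15 arrays Rps27l and the mean of the p53 targets had r = 0.36 and rho = 0.29 (permutation p = 0.18 and 0.30, also after Benjamini-Hochberg adjustment over 2 relations). Without the 2 arrays farthest from the median of the targets r was -0.14, and within the 8-array slide it was 0.54.

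The stalk of the large subunit, which recruits the elongation factors, is built from Rplp0, Rplp1 and Rplp2. Rplp2 read 8.90, 9.08 and 9.15 in vehicle and 9.37, 9.29, 9.16 and 9.47 in B20, groups that did not overlap but came within 0.01 of each other. It differed by 0.28 ± 0.19 from vehicle under B20, and by 0.02 after quantile normalisation. Between the drugs it differed by -0.45 ± 0.17 (adjusted p = 0.524). Rplp1 differed there by -0.41 ± 0.22.

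Rplp0, the base of the stalk, had a sign that depended on the scaling. It read 9.27, 9.47, 8.91 and 9.29 under B20 and 8.83, 8.67, 9.32 and 9.31 under nintedanib. The nintedanib arrays fell into a low pair, replicates 1 and 2, and a high pair inside the B20 range. The difference was -0.20 ± 0.18 (adjusted p = 0.773), and quantile normalisation turned it to 0.17 (adjusted p = 0.732). No scaling also gave a positive difference, 0.24.

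Among other small subunit genes, Rps3, a ribosomal protein that also acts in DNA repair, differed between the drugs by -0.51 ± 0.22. Rps19 and Rps14, whose loss of a copy causes bone marrow failure in people, differed by -0.30 ± 0.28 and -0.38 ± 0.22. Rps4x, whose gene is on the X chromosome, had -0.17 ± 0.22, and Rpsa, which is also known as the laminin receptor, had -0.47 ± 0.20. Adjusted p-values for this set ran from 0.525 to 0.872. Rpl13a, a large subunit protein that can leave the ribosome and repress translation after interferon gamma, read 8.39, 8.66, 8.20 and 8.46 under B20 and 7.70, 7.51, 8.30 and 8.05 under nintedanib. Only nintedanib replicate 3 reached into the B20 range, and the difference was -0.54 ± 0.21 with an adjusted p of 0.524.

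Paralogs of ribosomal proteins are often limited to one tissue, and their values were set beside those of their partners. Rpl22l1, the paralog of Rpl22 that rises when Rpl22 is lost in other settings, read 6.79, 7.24 and 6.86 in vehicle, 7.19, 7.76, 6.74 and 7.16 in B20 and 6.38, 6.27, 7.11 and 6.67 in nintedanib. Rpl22 read 8.04, 8.61 and 8.80, then 8.90, 9.02, 8.5 and 9.07, then 8.12, 7.69, 8.78 and 8.33 in the same groups. Both had their lowest value in nintedanib replicate 2, and both overlapped between groups. Their nintedanib minus B20 differences were -0.61 ± 0.26 and -0.65 ± 0.24, with adjusted p-values of 0.525 and 0.518.

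Rpl39l, a paralog best known from testis, read -1.03, -1.17, -2.13 and -1.18 in T0, -1.42, -1.06 and -3.08 in vehicle, -1.70, -0.84, -2.97 and -3.24 in B20 and -2.91, -2.52, -0.65 and -3.44 in nintedanib. Low and high arrays occurred in every group treated to the end, and no pair of those groups separated. The standard error of its differences between those groups was 0.66 to 0.71. Its partner Rpl39 read 8.52, 8.83, 8.14 and 8.57 under B20 and 7.76, 7.37, 8.40 and 8.0 under nintedanib, a difference of -0.64 ± 0.26 (adjusted p = 0.524).

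Rpl10l, another paralog used in the male germ line, was near background on most arrays, and its standard error between the drugs was 0.96. Its partner Rpl10 differed between the drugs by -0.34 ± 0.16. Rpl7l1, a paralog of Rpl7, read 0.64, 0.79 and -0.08 in vehicle, 0.45, 1.43, 0.03 and 0.28 in B20 and 0.07, 0.35, 0.82 and 0.57 in nintedanib. Its ranges overlapped widely and the drugs differed by -0.10 ± 0.33, beside -0.35 ± 0.16 for Rpl7.

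Rpl3l, the paralog that replaces Rpl3 in striated muscle, had the widest spread of all 82 genes. It read 2.53, 0.69, -1.54 and -3.06 in T0, -5.51, -5.39 and -2.93 in vehicle, 2.10, -4.10, -1.52 and -5.41 in B20 and -3.68, -2.97, -0.87 and -5.16 in nintedanib. T0 was high and vehicle low on average, yet T0 replicate 4 lay below vehicle replicate 3, and each drug group spanned several log2 units. The vehicle minus T0 difference was -4.27 ± 1.68 (95% interval -7.89 to -0.65, adjusted p = 0.161). Its probe was well above background on 1 of the 3 vehicle arrays, so the vehicle mean rests mostly on signals near background and the size of this difference is uncertain. For nintedanib minus vehicle it was 1.44 ± 1.68 and for B20 minus vehicle 2.38 ± 1.68, with adjusted p-values of 0.999. Rpl3 itself differed by 0.20 ± 0.27 between vehicle and T0.

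Skeletal muscle markers moved with Rpl3l. The mean level of 18 of them, Acta1 (skeletal actin) and Ckm (muscle creatine kinase) included, ranged from 0.34 to 5.92 in T0, from -1.38 to 1.28 in vehicle, from -0.89 to 5.29 in B20 and from -1.28 to 2.32 in nintedanib, and between 15 and 18 of them were well above background on each array. Over the 15 arrays Rpl3l had r = 0.994 and rho = 0.982 with that mean (permutation p = 1e-05 for each, the smallest that 100000 resamples can give, and 2e-05 after Benjamini-Hochberg adjustment over 2 relations). Without the 2 arrays farthest from the median r was 0.987. Within the 11 end-of-treatment arrays it was 0.993, and within the 8-array slide 0.997.

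**Figure D4:**
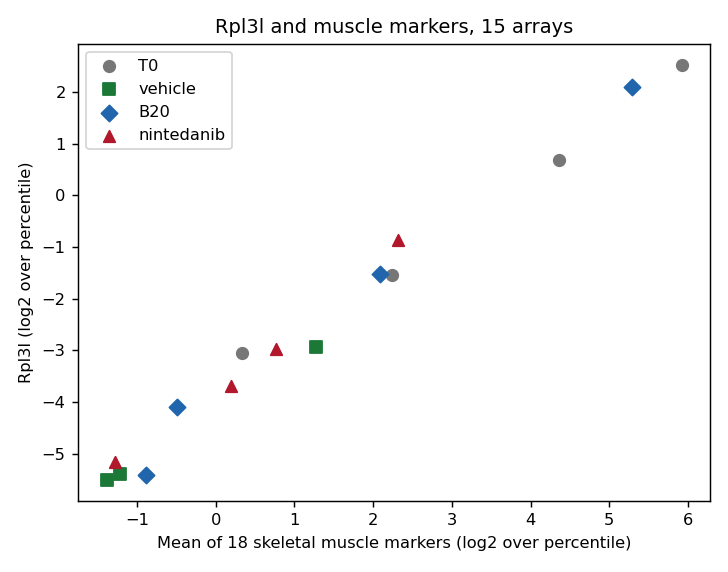
Level of Rpl3l (vertical, log2 over the array's 75th percentile) against the mean level of 18 skeletal muscle markers (horizontal, same scale), with 1 point per array and the group given by colour and shape. Arrays of all groups lay along one line, with r = 0.994 over 15 arrays.

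Against T0, which asks what changed between the start and the end of treatment, no ribosomal protein gene was called. For vehicle minus T0 the median was -0.06, with 33 of the 82 higher, 0 called against 4.92% of all features, and 1 (Rpl3l) past an unadjusted p of 0.05 against 21.3%. For nintedanib minus T0 the median was -0.21, with 8 higher, 0 called against 11.4%, and 2 (Rpl14 and Rpsa) past the unadjusted threshold against 28.2%. For B20 minus T0 the median was 0.21, with 77 higher, 0 called against 9.5%, and 4 past it against 26.1%. Whether these shares differ from those of all features was not tested. These comparisons share the 4 T0 arrays. Medians over all features were 0.04, 0.01 and 0.08.

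T0 replicate 4 had the highest median of the T0 arrays. Without it the medians became 0.07 for vehicle and -0.09 for nintedanib, and 0.32 for B20, so that the sign for vehicle turned. It also turned without vehicle replicate 1, to 0.06. Without nintedanib replicate 2 the nintedanib median was -0.08, and without B20 replicate 3 that of B20 was 0.32. With quantile normalisation the medians were 0.02, 0.00 and 0.06. Rpl14, of the large subunit, read 9.18, 9.26, 9.06 and 9.49 in T0 and 8.72, 8.33, 9.08 and 9.04 in nintedanib, with nintedanib replicate 3 just above the lowest T0 array, and differed by -0.46 ± 0.21 (adjusted p = 0.167). Rpsa differed by -0.44 ± 0.20 (adjusted p = 0.169), but 1 of its 4 probes had the opposite sign. Rpl4 and Rpl15, of the large subunit, differed between vehicle and T0 by -0.33 ± 0.19 and 0.30 ± 0.25.

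Under B20 the genes past the unadjusted threshold were Rpl39, Rpl21, Rpl19 and Rps25, of which Rpl19 and Rps25 were named after their values were seen. Rpl39, a small protein lining the exit tunnel of the ribosome, read 7.60, 7.85, 7.45 and 8.33 in T0 and 8.52, 8.83, 8.14 and 8.57 in B20. T0 replicate 4 alone reached into the B20 range. The difference was 0.71 ± 0.26 (95% interval 0.15 to 1.27, adjusted p = 0.103), and its 3 probes were all higher, by 0.33 to 0.71. With quantile normalisation Rpl39 was called, at 0.54 with an adjusted p of 0.0349, and without T0 replicate 4 it was called at 0.88 ± 0.26 with an adjusted p of 0.0449. Those settings called 1 and 2 of the 82 genes, beside 2823 and 3299 of all 28074 features.

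Rpl21, of the large subunit, read -1.23, -1.0, -1.03 and -0.49 in T0 and -0.45, 0.30, -0.58 and -0.58 in B20, again with T0 replicate 4 alone inside the B20 range. It differed by 0.61 ± 0.23 (adjusted p = 0.104), and by 0.76 ± 0.22 (adjusted p = 0.0466) without T0 replicate 4. Rpl19 differed by 0.58 ± 0.25 and Rps25 by 0.46 ± 0.21, with adjusted p-values of 0.156 and 0.187. Rps25 was called with the authors' values, at 0.38 ± 0.10 and an adjusted p of 0.0284, and with normexp and quantile normalisation, at an adjusted p of 0.0275. Each of those settings called 2 of the 82 genes, beside 2688 and 2705 of all 28074 features. Since T0 had its own slides and scan day, drug, time and slide cannot be told apart in these values.

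Genes that work with the ribosome were described from lists chosen alongside the family. Ribosome partner proteins, such as the elongation factors and the ribosome-bound scaffold Rack1, had a median of -0.37 for nintedanib minus B20, with 17 of 18 lower and 0 called. After quantile normalisation it was -0.08. Over all features 44.7% were higher with nintedanib than with B20. The mitochondrial ribosome, built from other genes, had -0.23 with 65 of 77 lower and 0 called, and -0.14 after quantile normalisation. Against vehicle its median was -0.13 under nintedanib and 0.12 under B20.

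Translation initiation factors (36 genes) had medians of -0.16 for nintedanib minus vehicle and 0.08 for B20 minus vehicle. Ribosome biogenesis factors (50 genes), which process ribosomal RNA and assemble subunits, lay lower under both drugs than in vehicle, with medians of -0.21 and -0.14. Of these, 41 of 50 were lower with nintedanib and 36 of 50 with B20, and 0 were called. Over all features 48.8% were higher with nintedanib than in vehicle, and 55.2% with B20. Group ranges of the list's mean level overlapped, at 2.08 to 2.36 in vehicle, 1.99 to 2.36 in B20 and 1.87 to 2.16 in nintedanib. Nop56, a core protein of the particles that methylate ribosomal RNA, had the lowest p under nintedanib, at -0.50 ± 0.17 (adjusted p = 0.918). For that list quantile normalisation left the medians at -0.18 and -0.15, while for the ribosomal proteins themselves it left -0.02 and 0.04.

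RNA polymerase I genes (14 genes), which transcribe ribosomal RNA, had medians of -0.08 and -0.03 against vehicle. Regulators of Myc and mTORC1 (23 genes) had 0.00 and -0.02, and Rps6kb1, the kinase of Rps6, had -0.32 ± 0.15 with nintedanib (adjusted p = 0.999). None of these genes was called among the end-of-treatment groups, and 23 housekeeping genes had medians of -0.09 and -0.02.

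**Figure D5:**
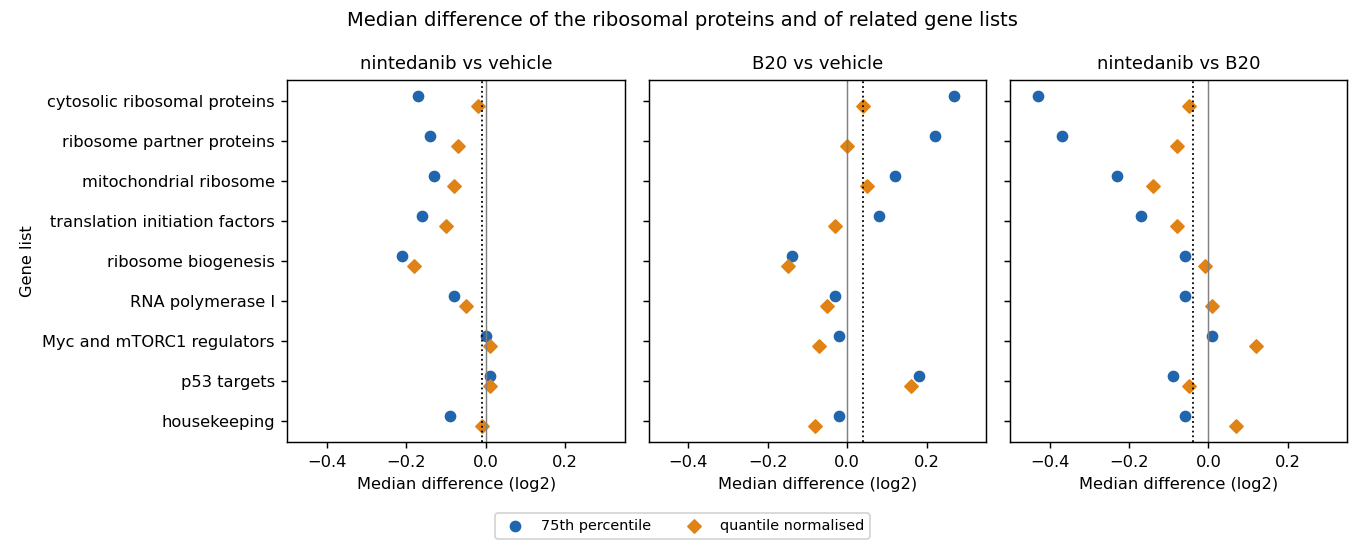
Median difference (log2) of the 82 ribosomal protein genes and of 8 related gene lists in the 3 comparisons among end-of-treatment groups, after scaling to the 75th percentile (circles) and quantile normalisation (diamonds). The dotted line is the median over all features with the first scaling. For nintedanib against B20 the ribosomal proteins and their partners lay farthest to the left with the first scaling, at -0.43 and -0.37, and close to 0 with the other.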

How the data were processed

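RNA from 15 mammary tumours was hybridised with Cy3 to 1-colour arrays (design 028005). Per the file headers, spots were read with Feature Extraction 10.7.3.1, and the deposited processed intensity is background-corrected within each array. The flags (other values, 0 or 1, per the file headers) mark spots well above background, saturated spots and outliers. The authors' table holds log2 values. How they were made: not given in the sources used here. Normexp with an offset of 50 and quantile normalisation of the median signals gave nearly the same values (median r 0.99992). Its column medians were 6.616 to 6.627, a higher value is a brighter spot, and genes were not centred.

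Control and outlier spots were dropped, spots of a probe averaged, and each array's log2 signal scaled by its 75th percentile. Missing values of 82 probe readings, none of them of these genes, took the probe's mean. Probes well above background on at least 3 arrays were kept, with 1 probe per gene, the brightest, named through RefSeq (26056 probes named, 29625 not). One limma 3.58.1 model (R 4.3.3) of 4 group means was fitted, two-sided, with Benjamini-Hochberg adjustment over 28074 features and calls under 0.05. It was tested on simulated data with independent noise for each gene and array, and with changes larger than the median differences here. The ribosomal protein genes moved together from array to array, so that test does not show how the model treats them. Precision is limited by the number of arrays.

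The files hold no mean signal, so normexp used median signals, a departure from the plan. Alternatives were other scalings, background corrections, filters and probe rules, slide and replicate blocks, array weights and each array left out. Members, lists and tests were chosen with earlier results of these data known. Genes were named by fixed choice (stalk, paralog pairs and genes of known extra roles), by call, by the lowest p values in each comparison (the first 2 higher and 2 lower), and, of related lists, by the lowest p against vehicle. No genome was used, only RefSeq promoters.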

Additional observations from a re-analysis of the deposited data

Results flagged for a closer look

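Arrays far from the rest of their group of 4 were looked for in 105 groups, made of the 34 named genes and the median over all 82 genes in T0, B20 and nintedanib. Of these, 9 were marked because 1 array's gap to its nearest neighbour took up nearly the whole range of the group. About 1 group in 20 is marked by chance, and the genes share their arrays, so these marks are not independent.

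T0 replicate 4, the array whose labels name both T0 and vehicle, accounted for 6 marks. It read 9.44 for Rplp1, a stalk protein, against 8.75 to 8.79 on the other T0 arrays. For Rps27a, the ubiquitin fusion, it read 9.65 against 9.04 to 9.07. For Rpl5 it read 7.52 against 6.54 to 6.67, and for Rps19 7.82 against 6.85 to 6.98. For Rps4x it read 7.76 against 6.92 to 7.05, and for Rpl7 8.87 against 8.54 to 8.59. In each it was the highest T0 array.

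The other marks were single genes. T0 replicate 3, the array with the most probes above background, read -2.13 for Rpl39l against -1.18 to -1.03. B20 replicate 3 read 9.12 for Rps27 against 9.42 to 9.45, and B20 replicate 2 read 0.30 for Rpl21 against -0.58 to -0.45.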

How the results depend on the processing

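Medians were judged against the pooled SD of the arrays' medians within groups, 0.251 log2. A shift smaller than this was left unmarked, even where it took away most of a median. With quantile normalisation this held for each drug against vehicle and against T0. The median for nintedanib minus B20, -0.43, became -0.05 with quantile normalisation, -0.06 with normexp and quantile normalisation, -0.06 with the authors' values and 0.01 with no scaling, a setting chosen after seeing the data. No scaling also gave -0.03 for B20 minus vehicle and 0.13 for nintedanib minus T0. Rplp0 between the drugs, -0.20, turned to 0.17, 0.21, 0.21 and 0.24 in the same order, and to 0.24 when arrays were centred on the ribosomal protein genes, also chosen later.

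No ribosomal protein gene was called among the end-of-treatment groups under any alternative run. For B20 minus T0, 1 was called with quantile normalisation, 2 with normexp and quantile normalisation, 2 with the authors' values, 1 with housekeeping centring, 1 with array weights and 0 to 2 with an array left out. These were Rpl39, Rps25 or Rpl21. Of all 28074 features, quantile normalisation called 2823, normexp and quantile normalisation 2705 and the authors' values 2688. Housekeeping centring called 2327, array weights 6072 and the fit without T0 replicate 4 called 3299. Array weights also called 1 for vehicle minus T0 (Rpl3l) and 4 for nintedanib minus T0 (Rps12, Rpsa, Rps24 and Rpl3l). In these comparisons they called 5273 and 7921 of all features. The cause of the member calls was not tested.

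Leaving out 1 array gave ranges of -0.17 to 0.28 for Rps27a (nintedanib minus vehicle), -0.95 to 0.06 for Rpl39l (B20 minus vehicle) and -2.0 to 0.51 for Rpl3l (nintedanib minus B20, positive without B20 replicate 1). Rps27a there was -0.19 with the mean of its probes and -0.01 with the replicate block. Samples were not treated as paired by replicate number. Of 21 same-numbered pairs of arrays, 6 correlated above 0.1, over a range of -0.246 to 0.38. Differently numbered pairs were not set beside them, so whether the numbers pair samples was not settled. The replicate block gave medians of -0.23, 0.20 and -0.43 among the end-of-treatment comparisons and called no member.

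With 3 or 4 arrays a group, the standard error of a typical ribosomal protein gene was 0.21 to 0.22. Rpl3l and Rpl10l were near background on many arrays.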
